A study of Bos taurus with 20 samples.

Results

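The comparison set endometrium of early luteal heifers, day 5 of the cycle, against endometrium of late luteal heifers, day 14. Its members are the 8 libraries whose labels give day 5 or day 14, 4 per day, out of 20 libraries in the series. The series took endometrial biopsies, samples of the lining of the uterus, from virgin Holstein heifers of at least 7 months and 340 kg on day 0 (estrus), 5, 10, 14 or 18, and its title poses the question of how the output of this lining recurs with the cycle. All animals, of both days, had their cycles synchronized by the same scheme: a GnRH analog (Fertagyl), a vaginal device that releases progesterone (Eazi-Breed), and a pair of doses of the prostaglandin analog Estrumate (cloprostenol). Animals were drawn at random for a day, so each library is taken to stand for a different heifer. On that reading the days compare animals, not 1 animal through time. No ovarian or hormone measurement of the heifers was used here, so a library's stage is its labelled day.

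After ovulation the corpus luteum forms in the ovary and secretes progesterone, which rises through the early luteal phase and stays high until the gland regresses. Under progesterone the glands of the bovine endometrium change what they secrete into the uterine lumen, and this secretion nourishes an embryo before it attaches. Day 5 falls while progesterone is still rising, and day 14 falls late in its plateau.

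The deposited tables pair no gene name with the Ensembl gene IDs, and of the 27607 IDs, 0 could be matched in a RefSeq table of 37063 cattle genes. Genes are therefore described in groups, by direction, size and abundance, and 4 IDs are printed. The markers of endometrial cell types could not be checked for the same reason. Fewer cells of a type and less RNA per cell cannot be told apart in such whole-tissue biopsies.

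The libraries were of similar depth, from 22462099 to 24686709 counts on day 5 and from 21610300 to 24589873 on day 14. One library, day 5 replicate 1, lay apart from the rest of its day. The main results are given with and without it, a choice made with earlier results of these data known. Its log2 CPM values (CPM is the count relative to the library's scaled total) correlated with those of the other 3 day 5 libraries at r = 0.923 to 0.929 across genes, while those 3 correlated with each other at 0.975 to 0.977. Its median correlation with the day 14 libraries was 0.939, within the 0.934 to 0.944 of day 5 replicates 2, 3 and 4. With the day 18 libraries it was 0.946, against 0.912 to 0.922 for those 3. Genes are not independent replicates and libraries share their abundant genes, so these correlations only describe the libraries. On the first principal component of the 8 libraries, which held 39.4% of the variance, day 5 replicate 1 scored −25.4, beside the day 14 libraries at −58.7 to −26.2 and away from the other day 5 libraries at 56.9 to 68.4. The second component, with 21.3% of the variance, separated it from all 7 others: it scored −88.2 and they scored −9.69 to 42.8. Day 14 replicate 4 stood apart in its own group, with correlations of 0.940 to 0.965 to the other day 14 libraries against 0.973 to 0.980 among those.

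**Figure D1:**
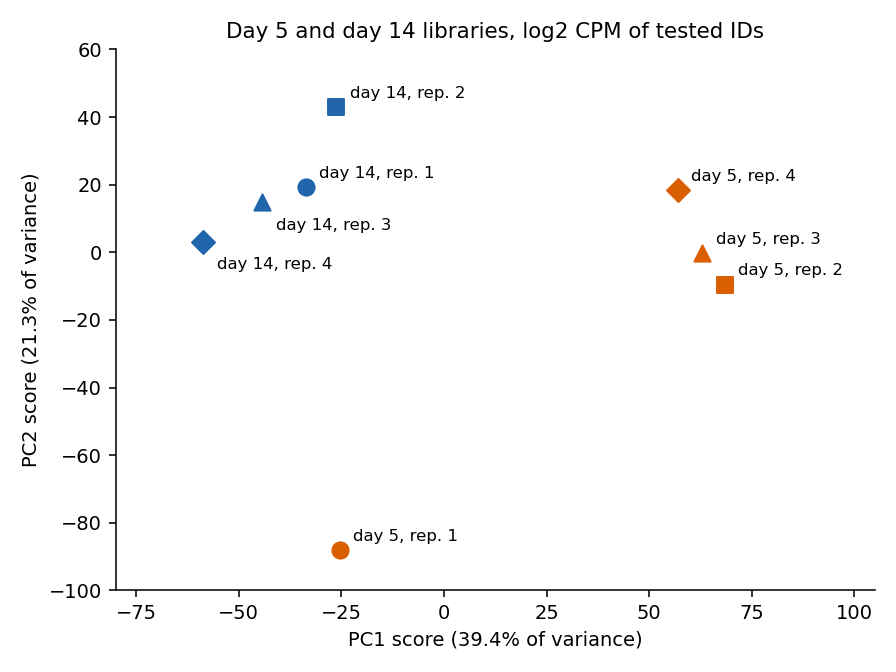
Scores of the 8 libraries on the first principal component (horizontal axis, 39.4% of the variance) and the second (vertical axis, 21.3%) of log2 CPM over the tested gene IDs; orange points are day 5, blue points day 14, and the marker shape gives the replicate. Day 5 replicate 1 shares the left side with day 14 on the first component and is alone at the bottom on the second.

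Between day 5 and day 14, 98 gene IDs rose (0.578% of 16947 tested) and 102 fell (0.602%), 1.18% in all. The calls are those of edgeR's quasi-likelihood test at a p under 0.05 after Benjamini-Hochberg adjustment over all tested IDs. The 2 directions differed in size. The falls had a median log2 fold change of −1.60, with quartiles at −3.23 and −1.12, and 43 of the 102 were at least 4-fold and 20 at least 16-fold. The rises had a median of 0.87, with quartiles at 0.65 and 1.17, and 40 of the 98 were at least 2-fold, 4 at least 4-fold and 1 at least 16-fold. Over all tested IDs the median log2 fold change was −0.01. The IDs that fell were also less abundant, with a median of 22.7 CPM over the 8 libraries against 61.9 CPM for those that rose and 18.97 CPM for all tested IDs. Together the IDs that fell held 0.690% of all counts on day 5 and 0.261% on day 14, and those that rose held 0.603% and 1.10%.

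Most of the calls lay close to the threshold. The lowest adjusted p was 0.00528, 3 IDs were under 0.01, and 166 of the 200 lay between 0.04 and 0.05, while another 163 lay between 0.05 and 0.06 (all edgeR). The share called rose with abundance, from 0.31% of the 1938 IDs under 1 CPM to 0.873% of those at 1 to 10 CPM, 1.41% at 10 to 100 CPM and 1.68% of the 2259 at 100 CPM or more. The values of both days did not overlap in 19.8% of the tested IDs: 1761 (10.4%) were higher in every day 14 library and 1598 (9.43%) lower. By arrangement alone, 2.86% would not overlap with 4 against 4 libraries, and more would with fewer libraries. Without day 5 replicate 1, 34.1% did not overlap, with 3 against 4 libraries. This share was not computed with another library left out, so the 2 shares are not on equal terms. If libraries were scaled by total counts only, 20 IDs rose and 83 fell, so that 19.4% of the calls were rises against 49% with TMM factors (trimmed mean of M values, the scaling used here). That scaling moved the median log2 fold change of all IDs from −0.01 to 0.02.

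Without day 5 replicate 1, 382 IDs rose (2.22% of 17191 tested) and 484 fell (2.82%), 5.04% in all. Of the 200 IDs called with all 8 libraries, 199 were called again and in the same direction, 97 that rose and 102 that fell; they are 99.5% of the shorter list and 23.0% of the longer. The lowest adjusted p became 4.67e-05, and 120 IDs were under 0.01 (edgeR). Large falls again outnumbered large rises: among the IDs tested in both fits, 180 of 479 falls and 57 of 380 rises were at least 4-fold, and 43 and 12 were at least 16-fold. At an unadjusted p under 0.05 the counts with and without this library were 3601 and 3755. Without any 1 of the other 7 libraries, and with day 5 replicate 1 kept, 2 to 4 IDs passed. The count was 3 when day 5 replicate 2, 3 or 4 or day 14 replicate 1 was missing, 2 when it was day 14 replicate 2 or 3, and 4 when it was day 14 replicate 4. With day 5 replicate 1 out throughout, leaving out 1 more library left 187 IDs (without day 5 replicate 2, and likewise without 3), 377 (day 5 replicate 4), 357, 463, 276 or 474 (day 14 replicate 1, 2, 3 or 4).

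**Figure D2:**
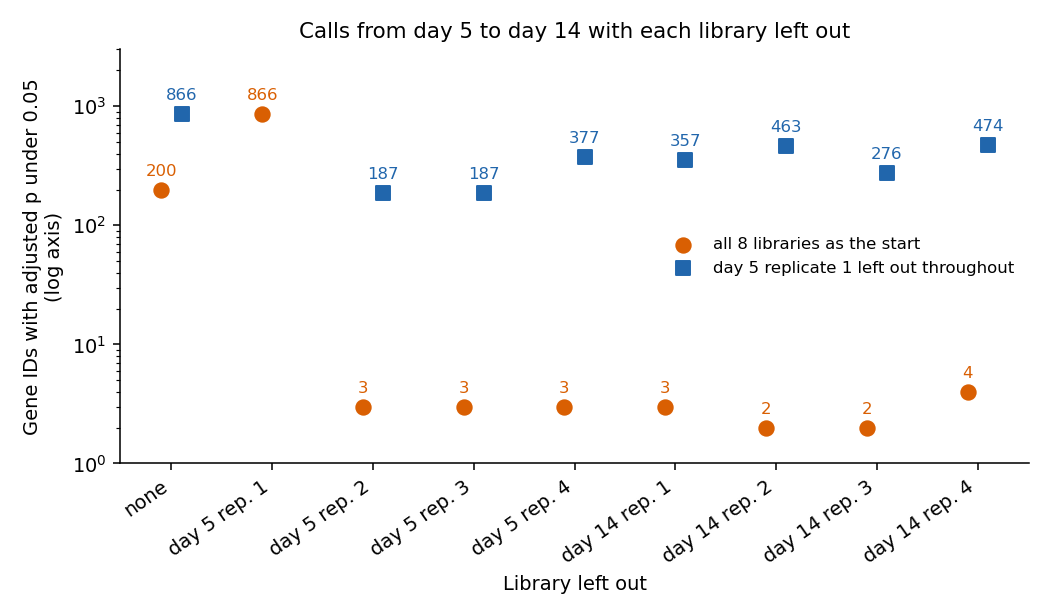
Number of gene IDs called between day 5 and day 14 (vertical log axis) with the library named on the horizontal axis left out; orange circles start from all 8 libraries and blue squares from the 7 without day 5 replicate 1. The count rises from 200 to 866 without day 5 replicate 1 and is 2 to 4 without any other library, while the blue squares stay between 187 and 866.

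The spread between animals differed with this library. The median SD of log2 CPM over all tested IDs was 0.315 among the 4 day 5 libraries and 0.300 among the 4 day 14 libraries. Without replicate 1 it was 0.217 on day 5, whereas leaving out another day 5 library gave 0.303 to 0.326. Without replicate 4 it was 0.181 on day 14, against 0.295 to 0.324 without another. Among the 102 IDs that fell, the median SD was 0.599 on day 5 and 0.268 on day 14, and among the 98 that rose it was 0.236 and 0.143.

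By their median, the largest falls were high in 3 day 5 libraries and low in the 17 other libraries of the series. The 20 IDs that fell by at least 16-fold had a median of 13.9, 13.1 and 13.2 CPM in day 5 replicates 2, 3 and 4, and of 0.797 CPM in day 5 replicate 1. On day 14 their median was 0.442, 0.404, 0.268 and 0.293 CPM in replicates 1 to 4, and 15 of the 20 averaged under 1 CPM. The libraries of the other days were outside the contrast but entered the filter and the shared estimate of spread. They are therefore not independent of the choice of these IDs. There the median of the 20 IDs lay between 1.02 and 1.46 CPM at estrus, between 1.07 and 1.96 CPM on day 10 and between 0.671 and 1.27 CPM on day 18. The 4 libraries of each day did not overlap in 10 of these 20 IDs, while 9.43% of all tested IDs were lower on day 14 without overlap. In the other 10, day 5 replicate 1 lay at or below the highest day 14 library. It was the lowest day 5 library in 19 of the 20.

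A second group of 23 IDs, which fell by 4-fold to 16-fold, had a similar profile at a smaller size. Their median was 20.6, 12.4 and 17.4 CPM in day 5 replicates 2, 3 and 4, and 3.75 CPM in replicate 1. It was 1.80 to 1.94 CPM in the day 14 libraries, 3.63 to 3.94 CPM at estrus, 2.13 to 4.06 CPM on day 10 and 2.14 to 3.82 CPM on day 18. The 59 smaller falls differed less between the day 5 animals, but a small fall passes the test more readily where libraries agree. Their median was 37.7 CPM in day 5 replicate 1 against 52.0 to 70.8 CPM in the others and 23.1 to 26.6 CPM on day 14. Of the 59, 57 did not overlap between the days, as did 9.43% of all tested IDs with day 14 lower.

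**Figure D3:**
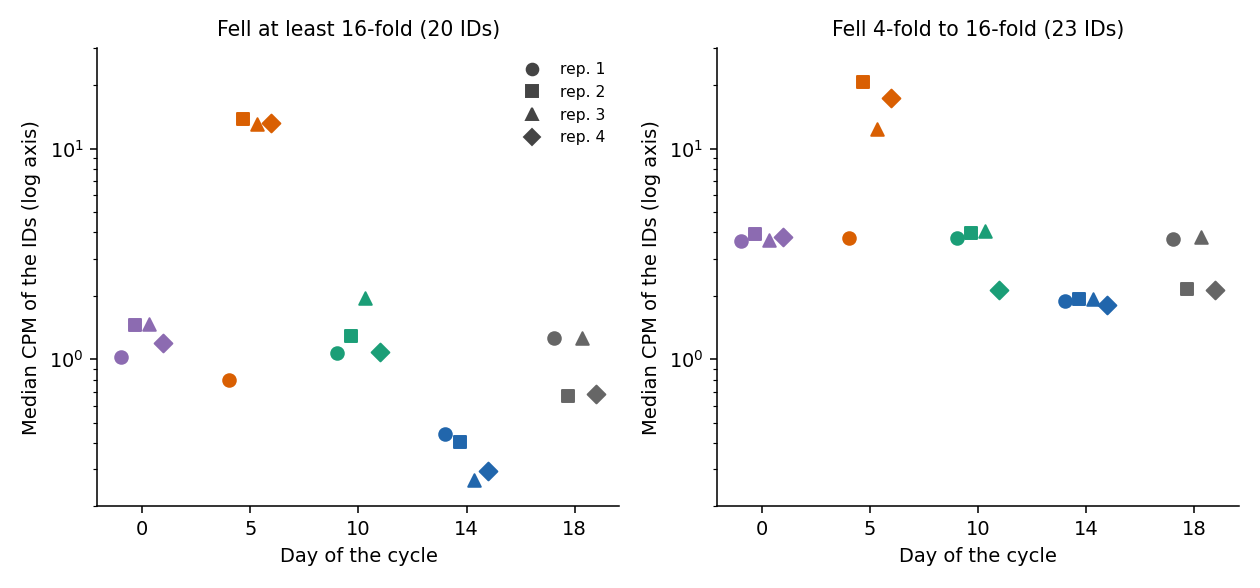
Median CPM (vertical log axis) over the 20 IDs that fell by at least 16-fold (left) and the 23 that fell by 4-fold to 16-fold (right) in each of the 20 libraries, by day of the cycle; marker shapes give the replicate. Only day 5 replicates 2, 3 and 4 lie above 10 CPM in both panels, and the IDs were chosen for their difference between days 5 and 14.

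The rises were smaller and more even between animals. The 40 IDs that rose by at least 2-fold had a median of 26.9, 17.1, 22.4 and 19.99 CPM in day 5 replicates 1 to 4 and of 45.9, 51.2, 49.0 and 55.9 CPM in day 14 replicates 1 to 4. Their median was 26.3 to 30.4 CPM at estrus, 30.5 to 39.5 CPM on day 10 and 21.6 to 46.4 CPM on day 18. The 58 smaller rises went from 48.9 to 64.4 CPM on day 5 to 85.6 to 97.7 CPM on day 14. All 98 were free of overlap between the days, as were 10.4% of all tested IDs with day 14 higher. Day 5 replicate 1 was the highest day 5 library in 30 of the 40 and 42 of the 58. These values describe the calls, since the same libraries chose them.

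The longer lists from the fit without day 5 replicate 1 show where that library and the other days lie. For the 479 IDs that fell, the mean log2 CPM relative to the day 14 mean was 1.93, 1.97 and 1.72 in day 5 replicates 2, 3 and 4 and 0.17 in replicate 1, which took no part in the choice. For the 380 that rose, it was −1.30, −1.27 and −1.20 in replicates 2, 3 and 4 and −0.39 in replicate 1. In the falls, day 5 replicate 1 was below all 3 other day 5 libraries in 439 of the 479, inside the range of the day 14 libraries in 158 of them and nearer to the day 14 mean in 378. In the rises it was above the other day 5 libraries in 338 of 380, inside the day 14 range in 107 and nearer to the day 14 mean in 233. Those nearer to the day 14 mean include 204 falls and 63 rises in which day 5 replicate 1 lay beyond that mean. The choice favours IDs in which the 3 libraries used lie close together, so a library outside the choice is not on equal terms with them; the other libraries of both days are left out and placed in turn further on.

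Relative to day 14, the IDs that fell stood at 0.74 ± 0.12 at estrus, 0.66 ± 0.18 on day 10 and 0.25 ± 0.32 on day 18 in mean log2 CPM (SD, n = 4 libraries each). Those that rose stood at −0.71 ± 0.13 at estrus, −0.40 ± 0.17 on day 10 and, by day 18, −0.40 ± 0.41 (SD, n = 4 each). All 4 estrus and all 4 day 10 libraries lay between the day 14 libraries and day 5 replicates 2 to 4 in both lists. The lists were chosen for the gap between those days, so libraries of other days tend to lie inside it. Day 18 was split: in the falls, replicates 2 and 4 were at 0.08 and −0.12, by the day 14 libraries at −0.05 to 0.10, and replicates 1 and 3 at 0.49 and 0.53. In the rises the day 18 libraries ran from −0.90 in replicate 1 to 0.03 in replicate 4.

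**Figure D4:**
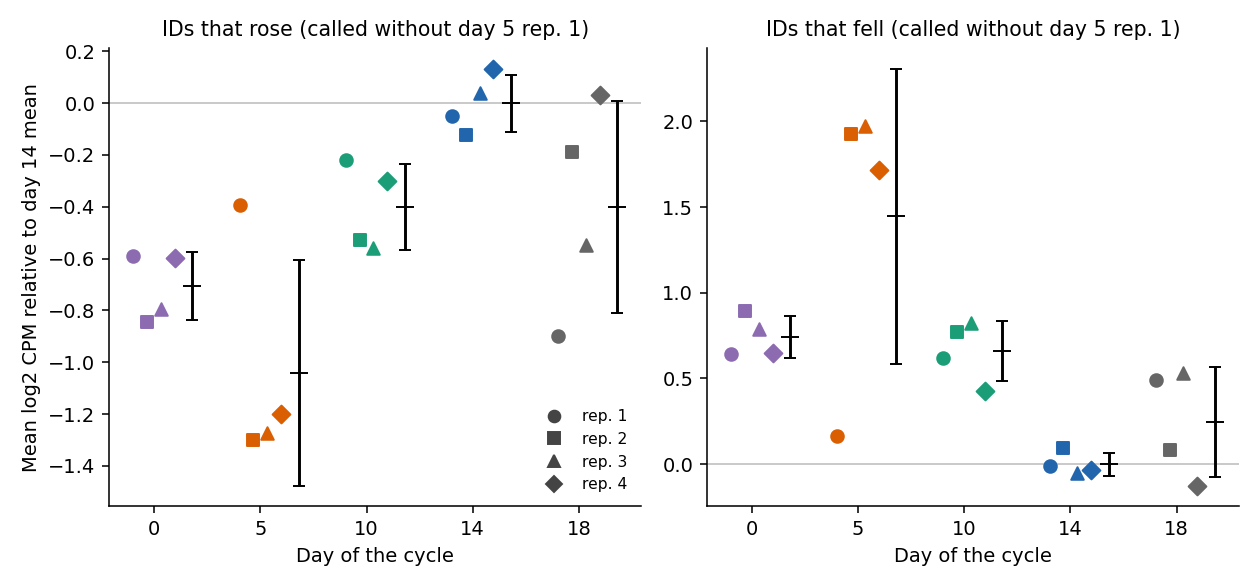
Mean log2 CPM relative to the mean of the day 14 libraries (vertical axis) in each library, by day, for the 380 IDs that rose (left) and the 479 that fell (right) in the fit without day 5 replicate 1; marker shapes give the replicate, and black bars the mean and SD of the 4 libraries. Day 5 replicate 1 lies far from the other day 5 libraries in both panels, and the estrus and day 10 libraries lie between those and day 14.

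Each library was placed on a line from the mean of day 5 replicates 2 to 4, set to 0, to the mean of day 14, set to 1, by projecting its log2 CPM of these 859 IDs on the difference of both means. On this line day 5 replicate 1 fell at 0.889, at 0.945 by the IDs that fell and 0.752 by those that rose. The day 0 libraries averaged 0.549 ± 0.067, the day 10 libraries 0.665 ± 0.123 and the day 18 libraries 0.813 ± 0.204 (SD, n = 4 each). Day 10 replicates 1 to 4 fell at 0.753, 0.594, 0.529 and 0.783, and day 18 replicates 1 to 4 at 0.641, 0.916, 0.645 and 1.05. Estrus lay nearer to day 14 by the falls, at 0.610 ± 0.060, than by the rises, at 0.400 ± 0.086 (SD, n = 4 each).

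The other libraries of both days kept to their own side when each was left out in turn and placed by the 500 IDs with the smallest p in the fit without it. Day 5 replicates 2, 3 and 4 fell at −0.193, −0.085 and −0.048 and day 14 replicates 1, 2, 3 and 4 at 0.835, 0.854, 0.954 and 0.845. Day 5 replicate 1 fell at 0.903, but on a line of another kind: its own day 5 end held replicates 2 to 4 only, while day 5 replicate 1 was part of the day 5 end for the 7 others. With day 5 replicate 1 also out of the fit and of the day 5 mean, a setting added after seeing the data, day 5 replicates 2, 3 and 4 fell at 0.068, 0.025 and 0.171 and day 14 replicates 1, 2, 3 and 4 at 0.921, 0.850, 1.01 and 0.952. Each left-out library still has its own line and its own 500 IDs, so these places are set side by side with no test. On the second principal component, day 5 replicate 1 lay apart from the 7 others.

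The 4 IDs named are the 2 largest rises and the 2 largest falls among the 91 and 69 called IDs with a mean of 5 CPM or more in both days together and no overlap between the days. ENSBTAG00000021118 had the largest rise. It had 37, 6, 11 and 10 counts in day 5 replicates 1 to 4 (1.59, 0.235, 0.445 and 0.412 CPM) and 262, 1933, 441 and 2716 counts in day 14 replicates 1 to 4 (11.03, 74.4, 18.2 and 114 CPM). Every day 14 library was thus above every day 5 library, and the animals of day 14 differed widely. The log2 fold change was 6.34 (SE 1.47, edgeR adjusted p = 0.0466), and 7.20 without day 5 replicate 1 (edgeR adjusted p = 0.0287). On day 10 ENSBTAG00000021118 was at 595, 92.5, 0.743 and 198 CPM in replicates 1 to 4, so that 3 of these animals were within or above the day 14 range and replicate 3 was within the day 5 range. It was at 0.133 ± 0.091 CPM at estrus and 1.86 ± 2.57 CPM on day 18 (SD, n = 4 each), with day 18 replicate 4 highest at 5.65 CPM.

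ENSBTAG00000006343 had the other large rise. It was at 1.68, 0.156, 0.889 and 1.73 CPM in day 5 replicates 1 to 4 and at 6.78, 5.35, 10.1 and 23.1 CPM in day 14 replicates 1 to 4. This was a log2 difference of 3.34 (SE 0.70, edgeR adjusted p = 0.0438). The 4 day 10 libraries, at 1.24 to 1.79 CPM, all lay below the day 14 libraries. The log2 fold change from day 5 to day 10 was 0.47 (SE 0.66, edgeR adjusted p = 0.774) and that from day 10 to day 14 was 2.87 (SE 0.69, edgeR adjusted p = 0.597), and neither passed the test. On day 18 ENSBTAG00000006343 was at 0.837, 4.85, 2.74 and 8.86 CPM in replicates 1 to 4, and at estrus at 0.932 ± 0.372 CPM (SD, n = 4).

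ENSBTAG00000001668 had the largest fall among IDs that met these conditions. It was at 1.51, 25.6, 11.3 and 18.6 CPM in day 5 replicates 1 to 4 and at 0.168, 0.077, 0.247 and 0.712 CPM in day 14 replicates 1 to 4. The log2 fold change was −5.55 (SE 1.23, edgeR adjusted p = 0.0455), and −5.92 without day 5 replicate 1 (edgeR adjusted p = 0.0118). ENSBTAG00000001668 was also low at estrus, at 0.654 ± 0.351 CPM (SD, n = 4). It was 4.43 higher on day 5 on the log2 scale (SE 1.15, edgeR adjusted p = 0.0262). That comparison and the fall share the day 5 libraries. The same step did not pass in the other named IDs (edgeR adjusted p = 0.387 to 0.852). The later steps of ENSBTAG00000001668 did not pass either. Their edgeR adjusted p was 0.337 from day 5 to day 10, 0.597 from day 10 to day 14 and 0.474 from day 14 to day 18. On day 10 it was at 1.12 to 5.64 CPM and on day 18 at 0 to 6.51 CPM, with replicate 3 highest on both days.

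ENSBTAG00000011461 fell from 1.59, 23.0, 33.3 and 26.8 CPM in day 5 replicates 1 to 4 to 0.463, 0.693, 0.783 and 0.251 CPM in day 14 replicates 1 to 4. Its log2 fold change was −5.26 (SE 1.10, edgeR adjusted p = 0.0438), and −5.64 without day 5 replicate 1 (edgeR adjusted p = 0.00755). Unlike ENSBTAG00000001668, it was well above its day 14 level at estrus, at 6.84 to 12.7 CPM. Day 10 was split for ENSBTAG00000011461, with 0.045 and 0.149 CPM in replicates 1 and 3 and 6.21 and 2.75 CPM in replicates 2 and 4. Each of these 4 IDs lost its call without any 1 of the 7 libraries other than day 5 replicate 1, and against a 2-fold change or with no filter on low counts, and ENSBTAG00000021118 also with total counts alone; none changed direction in its 18 alternatives.

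**Figure D5:**
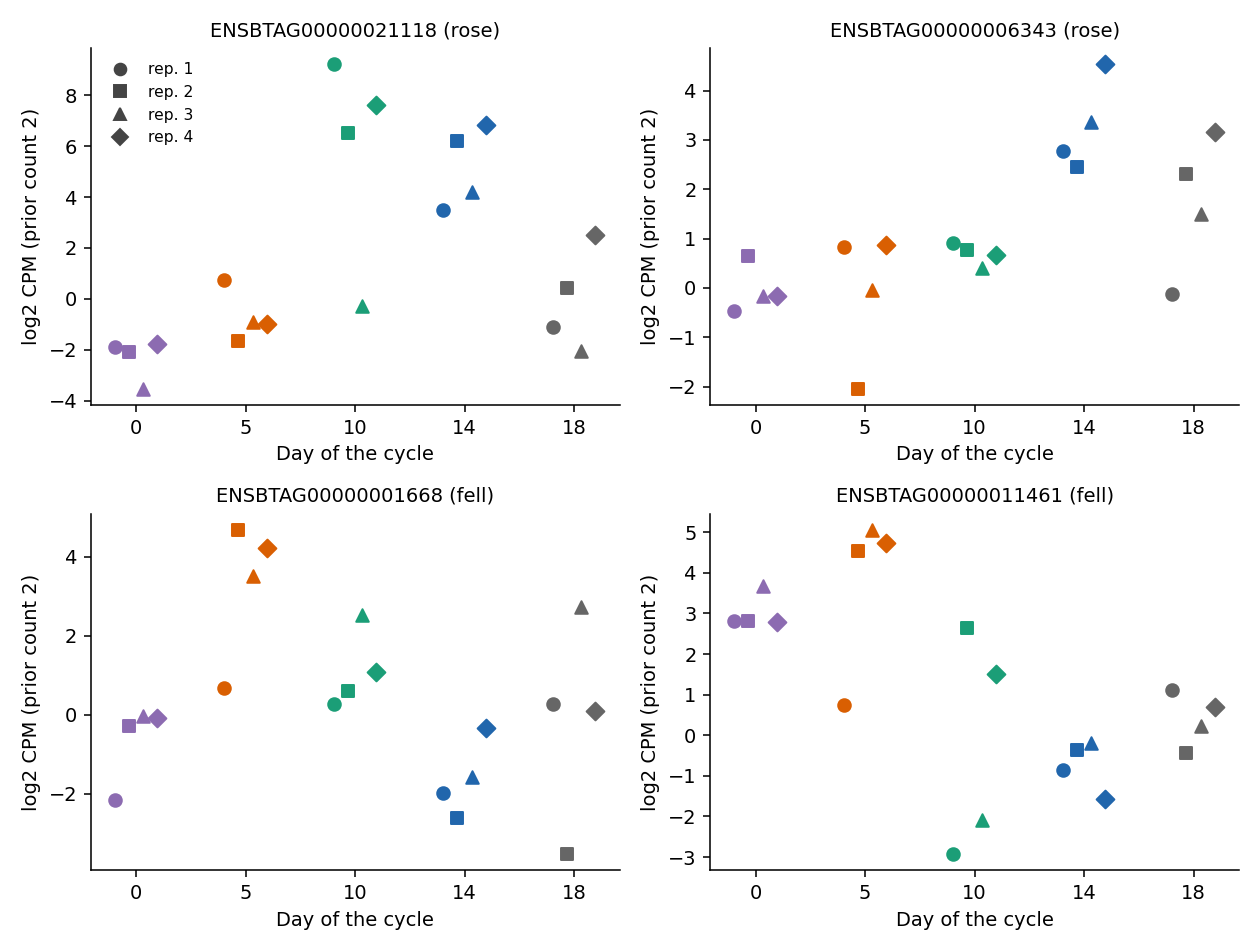
Log2 CPM with a prior count of 2 (vertical axis) of the 4 named IDs in each library, by day of the cycle; the upper panels rose and the lower panels fell from day 5 to day 14, and marker shapes give the replicate. In the lower panels day 5 replicate 1 is the day 5 library nearest to day 14, and ENSBTAG00000021118 spans most of its range within day 10.

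In each of the 4 day 14 libraries the 50 most abundant IDs held a smaller part of the counts than in any day 5 library; over the 100 or 500 most abundant IDs the days overlapped. The leading 50 IDs of a library held 13.3%, 13.1%, 14.8% and 12.4% of its counts in day 5 replicates 1 to 4, and 11.3%, 12.2%, 10.97% and 11.3% in day 14 replicates 1 to 4. The means were 13.4% ± 1.03 and 11.4% ± 0.514 (SD, n = 4 each), a difference of −1.99 percentage points with no overlap, and an exact permutation test (two-sided) gave p = 0.0286, which is the lowest that 4 libraries a day can reach. Adjusted over the 2 tests of single values per library it was 0.0572, which did not pass 0.05. In this share, day 5 replicate 1 lay within the range of the other day 5 libraries, and without it the difference was −2.02 percentage points. Both days shared 36 of their 50 leading IDs.

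Counted over the 10 leading IDs of each library, the difference was −2.19 percentage points. The 10 IDs most abundant on day 5 held 6.60% ± 1.03 of the counts on day 5 (SD, n = 4) against 4.11% ± 0.596 (SD, n = 4) on day 14; 9 of the 10 had a lower mean on day 14, 2 by at least 2-fold, and 5 did not overlap between the days with day 14 lower, as did 9.43% of all tested IDs. Of these 10, 0 were called by the edgeR test with or without day 5 replicate 1; with all 8 libraries 2 had an unadjusted p under 0.05, DESeq2 called 0 and limma voom 6. Over all tested IDs the shares were 21.2% at an unadjusted p under 0.05, 8.07% by DESeq2 and 34.8% by voom. An ID chosen as abundant on day 5 tends to be lower elsewhere. Of the 50 leading IDs of day 5, edgeR called 0 with all 8 libraries (12 had an unadjusted p under 0.05, DESeq2 called 5 and voom 22) and 3 without day 5 replicate 1. Of the 50 leading IDs of day 14, it called 0 (10 unadjusted, DESeq2 3, voom 23) and 4. Beside those shares over all IDs, and 1.18% and 5.04% for edgeR with and without day 5 replicate 1, these counts are no result about the leading IDs. At 1 CPM or more, 14779.8 ± 149 IDs were detected on day 5 (SD, n = 4) against 14760.2 ± 125 (SD, n = 4) on day 14, a difference of −19.5 that was within the spread of either day (two-sided exact permutation p = 0.8). Without day 5 replicate 1 it was −91.8.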

How the data were processed

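Poly(A) RNA of endometrial biopsies was sequenced from TruSeq stranded libraries, per the labels' protocols. The deposited values are raw counts per Ensembl gene ID, 1 file per library; FastQC, STAR and edgeR are named, without version or role, per the submitters' processing notes. Of the genome build, annotation, counter and strand setting nothing is given in the sources used here, so reads of overlapping, antisense or near-identical genes may not be told apart. Days and replicate numbers came from the titles; the labels give no batch.

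The analysis used edgeR 4.0.16 in R 4.3.3: filterByExpr, TMM factors, and a robust quasi-likelihood fit over all 20 libraries with 1 mean per day (19 without day 5 replicate 1), so that all days share the estimate of spread. The contrast is day 14 minus day 5; two-sided p-values were adjusted by Benjamini-Hochberg over all tested IDs, and the SE is the log2 fold change divided by the square root of F. Totals for CPM were scaled by TMM, and a prior count of 2 was added for log2 CPM. Single values per library were compared by exact permutation (scipy 1.17.1, Python 3.11.15). No pair of libraries of a day agreed within sampling noise (chi-square per degree of freedom 23.2 to 146). The edgeR fit was tested on simulated data. The members, lists and alternatives were chosen with earlier results of these data known. The rule for named IDs, 12 rises and 12 falls plus listed genes, reduces to 2 and 2 where no symbols match; 14 pathway and 7 cell type lists could not be run. Alternatives were RLE factors, total counts, other filters, voom with quality weights (limma 3.58.1), DESeq2 1.42.0, no robust option, a replicate block, only the 8 libraries, a 2-fold threshold, each library left out, and other numbers of IDs or CPM limits for single values. The labels do not say that replicate numbers pair the libraries, and correlations of deviations from 4 libraries a day cannot settle it. Figures used matplotlib 3.10.9.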

Additional observations from a re-analysis of the deposited data

Results flagged for a closer look

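In 43 groups of 4 libraries checked, 9 had 1 library far from the other 3. Chance flags about 1 group in 20, and several of the groups rest on the same IDs. That rate does not hold for values over IDs chosen from these libraries. Where day 5 replicate 1 took no part in the choice, the choice favoured IDs in which the other 3 day 5 libraries lie close together. Day 5 replicate 1 accounted for 6 of the 9. It was at 0.75 log2 CPM of ENSBTAG00000011461 against 4.53 to 5.06 in the other day 5 libraries. Relative to day 14, its mean log2 CPM was 0.80 against 2.17 to 2.41 over the 102 IDs that fell with all 8 libraries, 0.17 against 1.72 to 1.97 over the 479 that fell without it, and −0.39 against −1.30 to −1.20 over the 380 that rose without it. Placed between day 5 and day 14 as a left-out library it was at 0.903 against −0.193 to −0.048 (0.025 to 0.171 with it out of their day 5 mean too), and on the first principal component at −25.4 against 56.9 to 68.4.

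The other 3 were single values. Day 14 replicate 3 was placed at 0.954 against 0.835 to 0.854 for the other left-out day 14 libraries. With day 5 replicate 1 also out of the fit and of the day 5 mean, it was at 1.01 against 0.850 to 0.952. Day 0 replicate 1 was at −2.17 log2 CPM of ENSBTAG00000001668 against −0.28 to −0.03 in the other day 0 libraries. Day 0 replicate 3 was at 3.68 log2 CPM of ENSBTAG00000011461 against 2.79 to 2.82.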

How the results depend on the processing

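The count of 200 IDs became 103 with total counts alone, 23 with no filter on low counts (23021 IDs tested), 1368 with DESeq2, 5898 with limma voom, 1893 with only the libraries of days 5 and 14 in the fit and, against a 2-fold change, 0 by edgeR (517 at an unadjusted p under 0.05; no other tool was run against 2-fold). With RLE factors, 1 CPM in at least 4 libraries or no robust option it was 191 to 249. With 1 library left out it ranged from 2 to 866. Without day 5 replicate 1, the count of 866 became 1968 with DESeq2, 5826 with voom, 3341 with only both days and 29 against a 2-fold change; it was 666 to 1185 under the 6 other alternatives, 33.8% of the calls being rises with total counts against 44.1%, and 187 to 474 with 1 more library out. The cause of these shifts was not tested. With a replicate block the counts were 373 and 1185; libraries of the same number had correlated deviations of −0.079 to 0.061, and 2 of 8 libraries correlated best with their own number.

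The share of the most abundant IDs differed by −2.19 percentage points for 10 IDs, −1.91 for 100 and −1.80 for 500, the last 2 with exact permutation p = 0.0571. With 1 library left out it ranged from −2.34 to −1.52, and 3 against 4 libraries cannot give a p below 0.0571. The difference in IDs at 1 CPM or more, −19.5, ranged from −91.8 to 38.6 with 1 library left out, above 0 without day 5 replicate 3 (18.6) or 4 (6.92) or day 14 replicate 4 (38.6). The place of day 0 was 0.631 with the 100 IDs of smallest p; the places of days 10 and 18 moved by less than 1 SD of their 4 libraries under each alternative run, including leaving out libraries of the placed day, which was added after seeing the data. The place of day 5 replicate 1, a single library, was 0.889, and 0.893 to 0.919 under its 3 alternatives.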
